A study of Homo sapiens with 12 samples.

Results

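The transcripts described here are the antisense noncoding RNAs of HCT116, a human colorectal carcinoma line, measured by whole-transcriptome RNA-seq. They were taken from the 15074 genes of the deposited tables as every gene that GENCODE 29 (GRCh38) types as antisense. Of 510 such genes, 32 lay on chromosome 7 and were left out, as were VIM-AS1 and 2 microRNA host transcripts, which left 475 genes. Of these, 155 carry only a clone-based name.

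The 12 libraries formed 4 groups of 3: the parental line, an AGO2 knockout, and cells labelled FH-AGO2_WT and FH-AGO2_5xA, called FH-WT and FH-5xA here. The design text describes both as reconstituted with FH-AGO2, wild type or 5xA, with the other 2 groups as controls. The labels do not expand FH or 5xA and do not say whether a line is a single clone. Per the labels, triplicate wells of each line were seeded with 500000 cells and harvested after 48 h, so a p-value here reflects how wells of 1 line differ and not how lines differ. AGO2, the Argonaute that microRNAs guide to target RNAs, stood at fitted levels of 205, 161, 270 and 267 CPM (counts scaled to the size of the library) in parental, knockout, FH-WT and FH-5xA cells. In the authors' deposited table its log2 fold change in the knockout was -0.35 ± 0.07 (SE, derived from the deposited fold change and test statistic). These are mRNA levels, so the loss of the protein is not checked here. Of 10 colorectal epithelial markers 6 were in the tables (CDH1, CDX2, EPCAM, KRT8, KRT18 and KRT19), with summed fitted levels of 2828, 2303, 2017 and 2167 CPM in the same order. CDX1, VIL1, CDH17 and LGALS4 were absent from them, as were all 5 blood and all 4 endothelial markers. Of 6 fibroblast markers COL1A1 alone was present, at 1.83, 2.76, 2.89 and 4.99 CPM. MAP2, PAX2 and TUBB3, of 6 neural or embryonic kidney markers, summed to 13.0 to 16.4 CPM. The part of other cell types in the results was not tested.

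An antisense transcript is read from the strand opposite to another gene, usually a coding one, which it can meet at the start of both genes (head-to-head), at the end of both (tail-to-tail), or by lying within it. Many head-to-head transcripts start from the same promoter region as the coding gene. Such RNAs are mostly scarce, nuclear and quickly degraded. A few have known roles at their own locus, among them KCNQ1OT1 in imprinting and CDKN2B-AS1 at the CDKN2A/CDKN2B tumour suppressor genes.

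The promoters of 3 transcripts whose change recurs through the results are given first, from RefSeq on GRCh38.p14, 5′ to 3′ on the strand of the transcript, with capitals from the RefSeq start onward. SCAT8 (chr6:63806586-63806885, + strand) rose more than any other antisense transcript in the knockout:
SCAT8: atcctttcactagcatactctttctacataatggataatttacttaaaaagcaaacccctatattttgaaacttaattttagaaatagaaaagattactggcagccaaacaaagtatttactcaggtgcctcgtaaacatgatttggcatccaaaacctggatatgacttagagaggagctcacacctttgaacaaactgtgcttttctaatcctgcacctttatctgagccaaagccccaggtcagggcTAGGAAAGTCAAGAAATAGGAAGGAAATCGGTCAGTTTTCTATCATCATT
VPS9D1-AS1 (chr16:89711606-89711881, + strand) was higher in both reconstituted lines than in the knockout, and its window holds the GC box GGGCGG on the opposite strand, which reads CCGCCC here:
VPS9D1-AS1: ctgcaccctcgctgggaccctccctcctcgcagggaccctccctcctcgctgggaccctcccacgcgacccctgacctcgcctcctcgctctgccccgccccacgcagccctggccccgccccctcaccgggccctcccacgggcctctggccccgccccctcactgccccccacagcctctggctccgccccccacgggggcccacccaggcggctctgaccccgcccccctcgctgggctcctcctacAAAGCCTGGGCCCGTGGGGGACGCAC
PRKG1-AS1 (chr10:52314079-52314295, - strand) starts head-to-head with the WNT antagonist gene DKK1 and was called together with it. Its window holds a GC box and the TATA box TATAAA on the opposite strand only, which read CCGCCC and TTTATA here, and its RefSeq start, at 52314128, lies apart from its GENCODE 29 start, at 52314507:
PRKG1-AS1: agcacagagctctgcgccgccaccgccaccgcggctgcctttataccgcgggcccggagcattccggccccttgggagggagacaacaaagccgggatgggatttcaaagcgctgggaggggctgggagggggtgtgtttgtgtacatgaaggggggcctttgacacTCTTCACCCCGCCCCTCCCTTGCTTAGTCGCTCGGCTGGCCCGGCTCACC

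Next come stretches of 3 tail-to-tail transcripts that lie antisense to coding sequence and changed in the opposite direction to the coding gene. They are shown on the strand of the antisense transcript (GRCh38), with no letter in capitals. PINK1-AS is antisense here to PINK1 (chr1:20650569-20650688, - strand):
PINK1-AS: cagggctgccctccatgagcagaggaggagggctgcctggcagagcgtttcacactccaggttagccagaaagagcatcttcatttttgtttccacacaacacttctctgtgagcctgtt
GAS6-AS1 is antisense here to GAS6 (chr13:113839728-113839847, + strand):
GAS6-AS1: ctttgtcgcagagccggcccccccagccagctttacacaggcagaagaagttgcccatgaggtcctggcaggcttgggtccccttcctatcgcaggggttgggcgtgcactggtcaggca
ATP2C2-AS1 is antisense here to ATP2C2 (chr16:84460682-84460801, - strand):
ATP2C2-AS1: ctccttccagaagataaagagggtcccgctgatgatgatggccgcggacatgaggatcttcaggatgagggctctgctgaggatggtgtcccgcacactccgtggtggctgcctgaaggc

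Most antisense transcripts were scarce. Mean expression in the authors' deposited tables ran from -0.34 to 7.43 log2 CPM with a median of 1.04, and 351 of 475 lay under 2. The most abundant were GABPB1-AS1 at 7.43, FGD5-AS1 at 6.72, KCNQ1OT1 at 6.68, THAP9-AS1 at 6.36 and OTUD6B-AS1 at 6.29 log2 CPM. On fitted levels, GABPB1-AS1 stood at 180, 153, 173 and 186 CPM in parental, knockout, FH-WT and FH-5xA cells. FGD5-AS1 stood at 106, 97.3, 112 and 108 CPM in the same order. A fitted level is the deposited mean expression spread over the groups by the deposited fold changes. It stands in for values per library, which were not analysed here, so it carries no spread of its own, and the depth of each library is unknown. In bulk RNA, fewer cells that carry a transcript and less of it per cell cannot be told apart.

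GENCODE 29 places a coding gene on the opposite strand of 410 of the 475 transcripts, and that gene was measured for 345. For 39 transcripts 2 or more such genes were measured, and only the one of longest shared span was paired. Of these 345 pairs, 138 were head-to-head and 105 tail-to-tail. In 88 the transcript lay inside the coding gene, and in 14 the coding gene lay inside the transcript. The transcript and the coding gene shared exon bases in 289 pairs, with a median of 295 shared bases. The library kit keeps strand, per the labels, but the sources used here do not give whether counting used strand. In these 289 pairs reads of the transcript and of the coding gene may not have been told apart. Per kilobase of merged exon, the fitted level of the transcript was below that of the coding gene in 278 of 345 pairs in parental cells, with medians of 1.17 and 6.64 CPM per kb. Some pairs share a coding gene: 21 transcripts fell on 9 coding genes, with 4 on TTN and 3 on DLGAP1.

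In the knockout, antisense transcripts moved both ways, and a few rose steeply. At a false discovery rate under 0.05, called below, the authors' deposited table of knockout over parental held 65 antisense transcripts that were higher and 92 that were lower, among 475. Over all genes 44.4% were called, 23.2% higher and 21.2% lower, against 33.1% of the antisense transcripts, 13.7% higher and 19.4% lower. The median log2 fold change was -0.06 over the antisense transcripts and -0.01 over all genes. Their median SE was 0.21, against 0.12 over all genes. Of the 351 transcripts under 2 log2 CPM, 46 were higher and 50 lower. Coding genes of that expression off chromosome 7 had 334 higher and 178 lower among 1353, and other noncoding genes and pseudogenes 175 higher and 174 lower among 1351. Among the 124 antisense transcripts at 2 log2 CPM or more, 19 were higher and 42 lower. Coding genes off chromosome 7, here of any expression, had 2790 higher and 2418 lower among 11237, or 24.8% and 21.5%. The change reached 2-fold in 17 of the 157 called antisense transcripts, against 699 of the 6695 called over all genes.

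**Figure D1:**
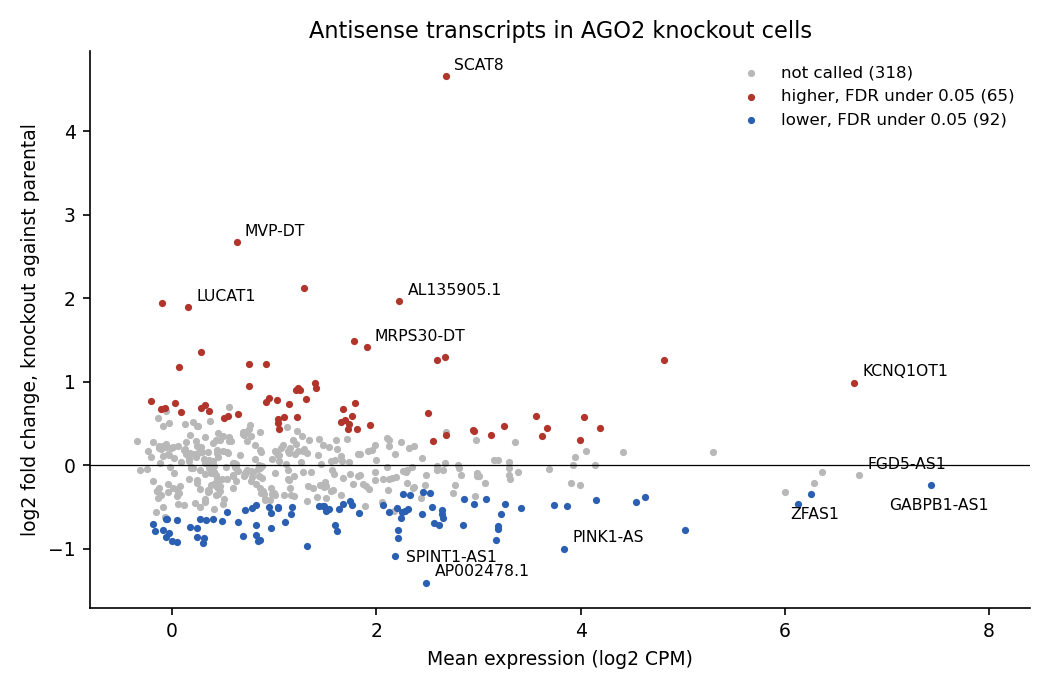
Each point is 1 of the 475 antisense transcripts, with mean expression (log2 CPM) on the horizontal axis and the deposited log2 fold change of knockout against parental on the vertical axis, coloured by call. SCAT8 stands alone at 4.66, the other large rises sit mostly under 3 log2 CPM, and the abundant KCNQ1OT1 lies at 0.99.

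SCAT8, named as an S-phase cancer associated transcript, spans chr6:63806836-63822642 on the + strand inside EYS, a gene best known from photoreceptors, with which it shares no exon base. Its fitted level was 0.19 CPM in parental cells, 4.93 in the knockout, 9.97 in FH-WT cells and 10.6 in FH-5xA cells. It was near zero in parental cells and higher in the 3 engineered lines, with the reconstituted lines above the knockout. The authors' deposited tables gave log2 fold changes of 4.66 ± 0.30 for knockout against parental, 5.68 ± 0.29 for FH-WT against parental and 5.77 ± 0.29 for FH-5xA against parental. With so low a parental level these folds depend on the prior count of the fit, which the sources used here do not give. Against the knockout, SCAT8 rose by 1.01 ± 0.19 in FH-WT (adjusted p 6.4e-06) and by 1.10 ± 0.18 in FH-5xA (adjusted p 1.8e-07).

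The measured genes within 2 Mb of SCAT8 did not move as a block in the knockout. In the authors' deposited table that sets the knockout against parental cells, EYS rose by 3.93 ± 0.50, from fitted levels of 0.058 to 0.89 CPM. Its fold depends on the prior count as that of SCAT8 does. The phosphatase gene PTP4A1, whose start lies at -285.1 kb from that of SCAT8, rose by 1.86 ± 0.13, from 227 to 825 CPM. AL135905.1, an antisense transcript that lies inside PTP4A1 with no shared exon base, rose by 1.97 ± 0.16, from 1.399 to 5.48 CPM. PHF3, a gene for a protein that binds RNA polymerase II and which lies between these genes and SCAT8, had 0.17 ± 0.09 and was not called (adjusted p 0.12). FKBP1C, farther out, had -0.11 ± 0.19 and was not called either. Genes on both sides of PHF3 thus rose in the knockout while PHF3 itself, whose span overlaps that of EYS, did not pass the test. Against parental cells PHF3 was called higher in FH-WT, at 0.30 ± 0.09 (adjusted p 0.0054 by the authors' edgeR test). In FH-5xA it had 0.19 ± 0.09 and was not called.

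**Figure D2:**
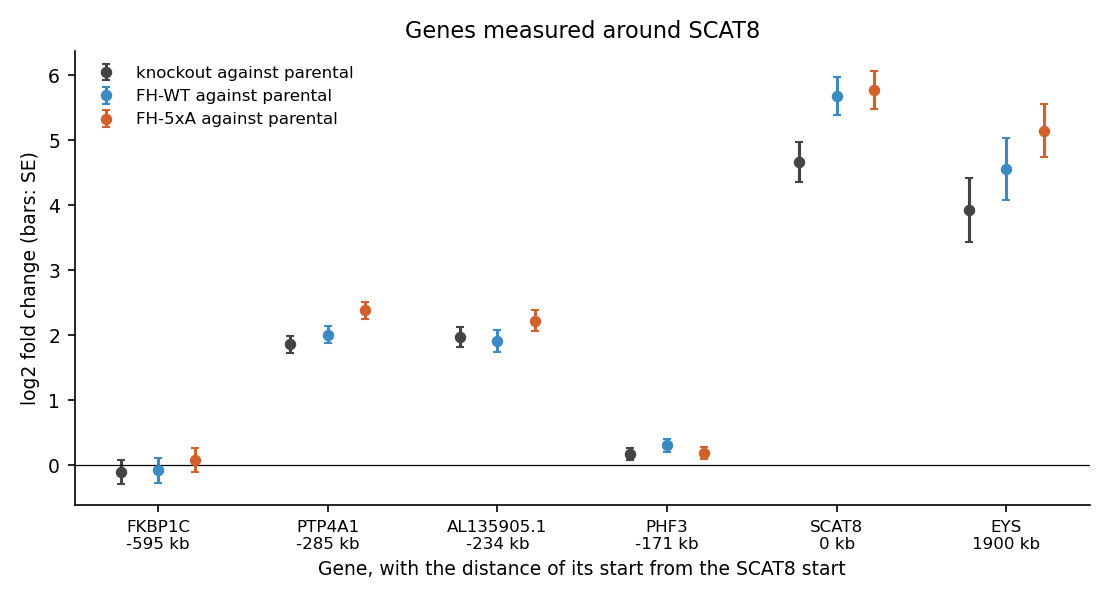
Deposited log2 fold changes against parental cells, with SE bars, for the 6 measured genes within 2 Mb of SCAT8, ordered by the distance of their start from the start of SCAT8, which is given in kb below each name. SCAT8 and EYS lie above 3.9 in all 3 lines, PTP4A1 and AL135905.1 near 2, and PHF3 and FKBP1C between -0.11 and 0.30.

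After SCAT8, the largest rises in the knockout by the rule for named transcripts (the 8 largest of at least 0 log2 CPM) were MVP-DT, AC078993.1, AL135905.1, LUCAT1, AL138789.1, MRPS30-DT and PYCARD-AS1. MVP-DT is named as divergent to MVP, the gene of the major vault protein, whose start lies within the span of MVP-DT on the opposite strand. MVP-DT also spans PRRT2, a presynaptic protein gene, with which it was paired here because their shared span is longer. Its fitted level was 0.34 CPM in parental cells, 2.15 in the knockout, 1.47 in FH-WT cells and 2.24 in FH-5xA cells. All 3 engineered lines were above the parental cells, and in the authors' deposited table that sets the knockout against parental cells MVP-DT rose by 2.67 ± 0.28. There MVP rose by 1.28 ± 0.14, from 37.6 to 91.4 CPM, while PRRT2 had 0.05 ± 0.24 and was not called. LUCAT1, a stress-induced long noncoding RNA, rose by 1.89 ± 0.28 in the authors' deposited table, from 0.40 to 1.48 CPM. The adhesion receptor gene ADGRV1, which it meets tail-to-tail without shared exon bases, had -0.16 ± 0.11 and was not called.

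AC078993.1 on chromosome X rose by 2.13 ± 0.26 in the authors' deposited table, from 0.81 to 3.52 CPM, and no measured coding gene overlaps it. MRPS30-DT rose by 1.42 ± 0.18, from 1.75 to 4.68 CPM, while MRPS30, the mitochondrial ribosome gene in its name, had 0.09 ± 0.08 in the authors' deposited table and was not called. PYCARD-AS1 rose by 1.35 ± 0.28, from 0.54 to 1.38 CPM in the same table. AL138789.1 rose by 1.49 ± 0.18, from 1.75 to 4.91 CPM, while DEPDC1, which surrounds it, fell by 0.33 ± 0.09 in the authors' deposited table. KCNQ1OT1, the abundant imprinted RNA inside the potassium channel gene KCNQ1, rose by 0.99 ± 0.09, from 58.7 to 117 CPM, and stayed at 110 in FH-WT cells and 124 in FH-5xA cells. KCNQ1 itself, at 1.38 and 1.25 CPM, had -0.14 ± 0.24 in the authors' deposited table and was not called. Of the 8 largest rises, 5 had a measured overlapping coding gene. The one of longest shared span rose in 2 (EYS and PTP4A1), fell in 1 (DEPDC1) and was not called in 2 (PRRT2 and ADGRV1). MVP, which also overlaps MVP-DT but over a shorter span than PRRT2, rose as given above.

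The largest falls were smaller than the largest rises. AP002478.1, inside the postsynaptic scaffold gene DLGAP1, fell by 1.41 ± 0.16 in the authors' deposited table, from 9.35 to 3.53 CPM, and DLGAP1 fell by 1.01 ± 0.21, from 1.90 to 0.94 CPM. The 2 other antisense transcripts in DLGAP1, DLGAP1-AS1 at -0.08 ± 0.10 and DLGAP1-AS2 at -0.24 ± 0.12, were not called in the authors' deposited table. SPINT1-AS1 fell by 1.09 ± 0.21, from 6.95 to 3.27 CPM, while SPINT1, a protease inhibitor gene that it meets head-to-head, had 0.22 ± 0.11 and was not called. PINK1-AS fell by 0.999 ± 0.12, from 21.5 to 10.8 CPM, and PINK1, the mitophagy kinase, rose by 0.81 ± 0.11, from 20.4 to 35.7 CPM. The remaining named falls in the authors' deposited table were LINC02894 at -0.97, ELF3-AS1 at -0.93, KIF23-AS1 at -0.92, ELOA-AS1 at -0.91 and FOXP4-AS1 at -0.90. Of the coding genes these names carry, KIF23, a kinesin of cell division, fell by 0.46 ± 0.07 in the authors' deposited table, FOXP4, a transcription factor, rose by 0.56 ± 0.21, and ELF3 at -0.08 and ELOA at 0.14 were not called.

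Set side by side, a transcript and its coding gene were both called in a minority of pairs. In the authors' deposited table that sets the knockout against parental cells, both were called in 57 of 345 pairs, 28 in the same direction and 29 in opposite directions. Of the 28, 11 pairs were higher and 17 lower. Of the 29, the transcript was lower and the coding gene higher in 21, and the reverse held in 8. Only the transcript was called in 64 pairs, only the coding gene in 105, and neither in 119. Across the 345 pairs Pearson's r between the 2 fold changes was 0.14 and Spearman's rho 0.02, and without SCAT8 and EYS they were -0.02 and 0.01. These are descriptions over gene pairs, which share libraries and in part exons. Among 1430 measured pairs of coding genes on opposite strands, both were called in the same direction in 168 and in opposite directions in 115.

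The pairs are given next by the way the 2 genes met. Head-to-head pairs held 13 in the same direction and 6 opposite among 138, and tail-to-tail pairs 3 in the same direction and 15 opposite among 105. Transcripts inside a coding gene gave 11 and 7 among 88. Among pairs that share exon bases, the counts were 11 and 5 for head-to-head and 3 and 14 for tail-to-tail. Overlapping coding genes gave 76 and 50 among 633 head-to-head pairs and 65 and 52 among 641 tail-to-tail pairs. Fold changes against parental in the other 2 lines, which share the parental libraries, gave 8 in the same direction and 3 opposite head-to-head in FH-WT, and 8 and 5 in FH-5xA. Tail-to-tail they gave 3 and 5 in FH-WT and 4 and 7 in FH-5xA. No test of the difference between the arrangements was made, and the part that counting reads of both strands could have in these counts was not tested.

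**Figure D3:**
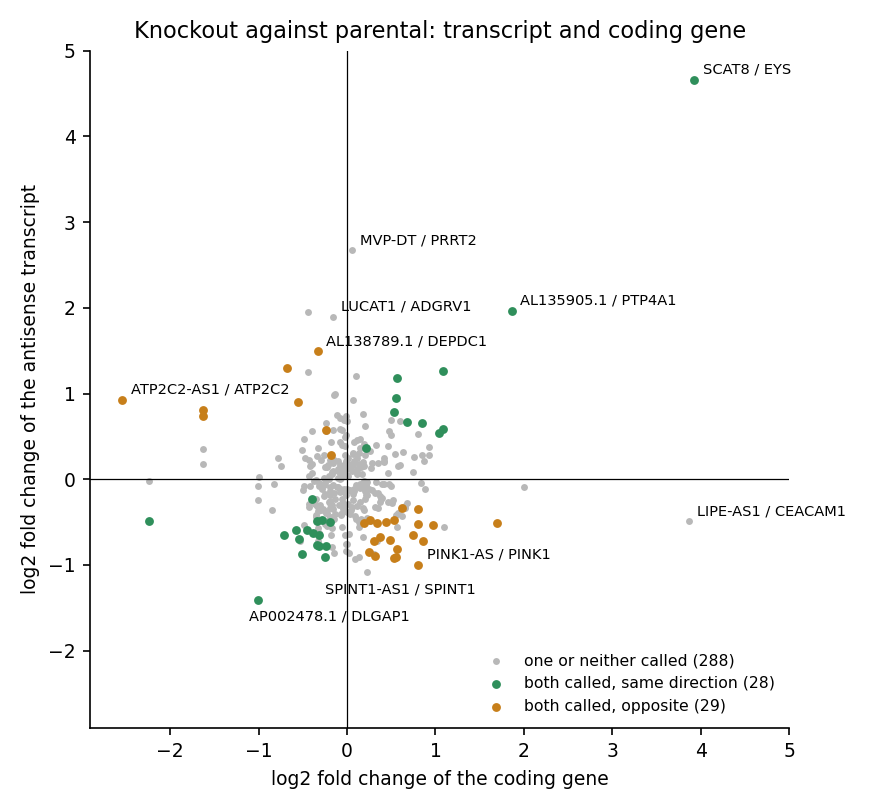
Each point is 1 of 345 pairs, with the deposited log2 fold change of the coding gene on the horizontal axis and that of the antisense transcript on the vertical axis, for knockout against parental. The 28 green pairs were called in the same direction and the 29 orange pairs in opposite directions, and most orange points lie at lower right, where the transcript fell and the coding gene rose.

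The tail-to-tail pairs that were called in opposite directions, here and in the next 2 paragraphs named in part after their values were seen, included genes of well known pathways. GAS6-AS1 rose from 2.70 CPM in parental cells to 6.65 in the knockout, and stood at 6.32 in FH-WT cells and 9.82 in FH-5xA cells. GAS6, the ligand of the AXL receptor family, stood at 19.1, 11.9, 18.9 and 21.4 CPM in the same order. The transcript was thus highest in FH-5xA, and the coding gene was lowest in the knockout. In the authors' deposited table that sets the knockout against parental cells GAS6-AS1 rose by 1.30 ± 0.14 and GAS6 fell by 0.68 ± 0.15. Their difference was 1.98, with a 95% interval of 1.57 to 2.39 that takes the errors of the 2 genes as independent. ATP2C2-AS1 rose by 0.93 ± 0.21 in the authors' deposited table, from 1.36 to 2.58 CPM, while ATP2C2, a calcium pump gene of the secretory pathway, fell by 2.54 ± 0.14, from 12.8 to 2.21 CPM. That pair differed by 3.47 (95% interval 2.97 to 3.96).

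PINK1-AS and PINK1 differed by -1.81 (95% interval -2.13 to -1.48), and they share 1907 exon bases. SBF2-AS1 fell by 0.89 ± 0.11 in the authors' deposited table, from 13.1 to 7.07 CPM, and SBF2 rose by 0.32 ± 0.09. KIF23-AS1 fell by 0.92 ± 0.23 while PAQR5, which it meets tail-to-tail, rose by 0.54 ± 0.08 in the authors' deposited table. ZFHX3-AS1 fell by 0.71 ± 0.12 and the transcription factor gene ZFHX3 rose by 0.86 ± 0.15 in the authors' deposited table. PXN-AS1 fell by 0.33 ± 0.14 and PXN, the gene of the focal adhesion protein paxillin, rose by 0.62 ± 0.09 there. The 3 tail-to-tail pairs that moved the same way were RPAP3-DT with RAPGEF3, ATP8B1-AS1 with ATP8B1 and KIF9-AS1 with KIF9.

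Head-to-head pairs that moved together included NR2F2-AS1, which shares no exon base with NR2F2, an orphan nuclear receptor gene. NR2F2-AS1 stood at 2.91, 6.99, 7.22 and 7.11 CPM in parental, knockout, FH-WT and FH-5xA cells, and NR2F2 at 33.3, 70.6, 83.5 and 79.5 CPM. Both stood higher in every engineered line than in parental cells, by 1.26 ± 0.14 and 1.08 ± 0.14 in the authors' deposited table for the knockout. TMPO-AS1 fell by 0.70 ± 0.11 and TMPO, a nuclear lamina gene, by 0.55 ± 0.11 in the authors' deposited table. GABPB1-AS1 fell by 0.23 ± 0.07 and GABPB1, a subunit gene of the GA-binding transcription factor, by 0.40 ± 0.10. SRRM2-AS1 rose by 0.55 ± 0.15 and the nuclear speckle gene SRRM2 by 1.04 ± 0.20 in the authors' deposited table. Head-to-head pairs in opposite directions included ZFAS1, a small nucleolar RNA host, which fell by 0.35 ± 0.08 while the helicase gene ZNFX1 rose by 0.80 ± 0.07 in the authors' deposited table. PPP1R14B-AS1 rose by 0.90 ± 0.19 while PPP1R14B fell by 0.55 ± 0.22.

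The 5 pairs furthest apart in the knockout were LIPE-AS1 with CEACAM1, ATP2C2-AS1 with ATP2C2, MVP-DT with PRRT2, and AC009948.3 and AC009948.4 with TTN. MVP, which MVP-DT also overlaps, rose together with MVP-DT. LIPE-AS1 had -0.49 ± 0.31 and was not called, whereas the adhesion molecule gene CEACAM1 within it rose by 3.86 ± 0.34 in the authors' deposited table, from 0.13 to 1.89 CPM. With so low a parental level the fold of CEACAM1 depends on the prior count of the fit. LIPE, the gene in the name of LIPE-AS1, fell by 0.58 ± 0.23 in the authors' deposited table. TTN, the giant muscle protein gene, stood at 1.95 CPM in parental cells and 0.63 in the knockout and fell by 1.63 ± 0.32 in the authors' deposited table. Its antisense transcripts AC009948.3 and AC009948.4 rose there by 0.80 ± 0.19 and 0.74 ± 0.27, and TTN-AS1, at 16.2 and 18.4 CPM, had 0.18 ± 0.11 and was not called. ZEB1-AS1, head-to-head with ZEB1, stood at 5.25 and 4.94 CPM and was not called, while ZEB1, the transcription factor of epithelial-mesenchymal transition, went from 8.03 to 32.1 CPM, a rise of 2.001 ± 0.10 in the authors' deposited table. Their difference was -2.09 (95% interval -2.38 to -1.79).

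Against the knockout, more antisense transcripts were called higher than lower in both reconstituted lines. The authors' deposited table for FH-WT against knockout held 19 that were higher and 4 that were lower, 4.84% of 475, where 10.1% of all genes were called, 4.21% higher and 5.85% lower. The authors' deposited table for FH-5xA against knockout held 32 higher and 7 lower, 8.21%, where 11.3% of all genes were called, 5.04% higher and 6.24% lower. Median log2 fold changes over the antisense transcripts were 0.08 and 0.11, and over all genes 0.01 in both. Of the 351 antisense transcripts under 2 log2 CPM, 6 were higher and 4 lower in FH-WT, and 20 higher and 6 lower in FH-5xA. Higher calls made up 1.71% and 5.70% of them. Among the 124 at 2 log2 CPM or more, 13 were higher and 0 lower in FH-WT, and 12 higher and 1 lower in FH-5xA. Other noncoding genes and pseudogenes under 2 log2 CPM had 31 higher and 18 lower in FH-WT and 77 higher and 20 lower in FH-5xA among 1351. Their higher calls made up 2.30% and 5.70%. Coding genes of that expression, 1353 in number, had 28 higher and 88 lower in FH-WT, and 111 higher and 71 lower in FH-5xA.

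**Figure D4:**
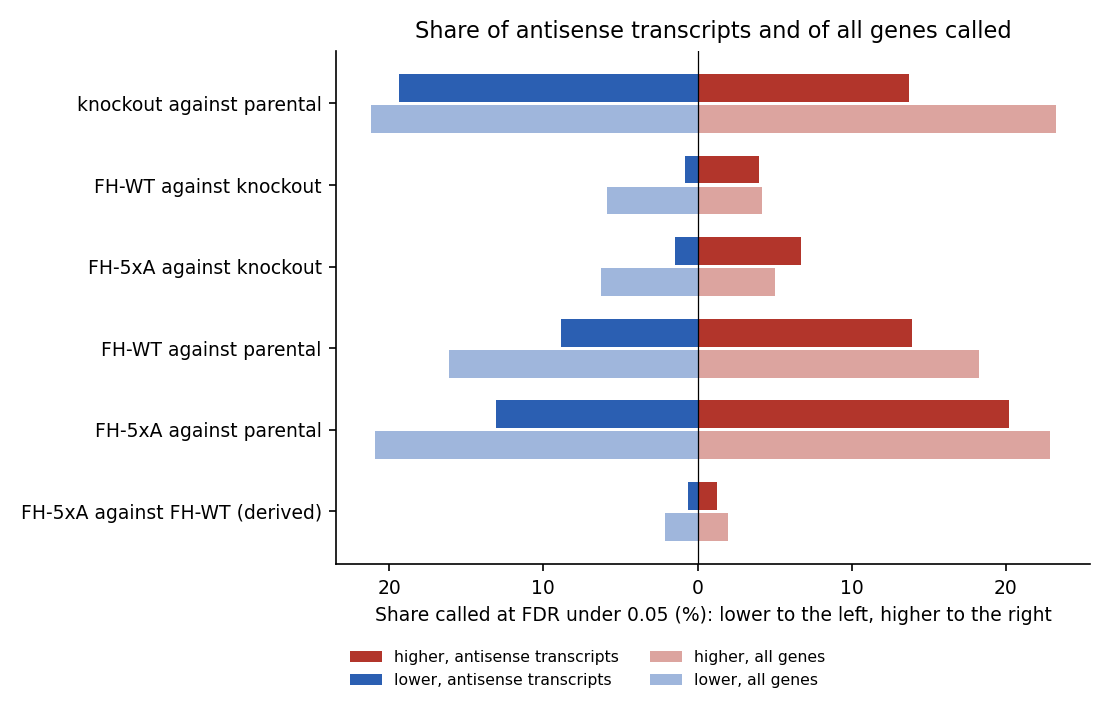
Bars give the share (%) of the 475 antisense transcripts (dark) and of all genes (pale) called higher (red, to the right) or lower (blue, to the left) in each of the 6 comparisons. Dark bars are shorter than pale ones except for higher calls in FH-5xA against knockout, at 6.74% against 5.04%.

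The values of single transcripts in these comparisons, which share the knockout libraries, are given side by side. VPS9D1-AS1, inside VPS9D1 and sharing 518 exon bases with it, stood at 3.47 CPM in parental cells, 4.58 in the knockout, 7.63 in FH-WT cells and 10.01 in FH-5xA cells. By the authors' deposited tables, it rose over the knockout by 0.74 ± 0.21 in FH-WT cells, and by 1.13 ± 0.20 in FH-5xA cells, while VPS9D1, at 1.25 to 1.73 CPM in the 4 groups, was called in neither. SLC25A25-AS1 stood at 3.48 and 3.11 CPM in parental and knockout cells and at 5.01 and 5.17 in the reconstituted lines. It rose by 0.69 ± 0.16 and 0.73 ± 0.15 over the knockout in the authors' deposited tables, and SLC25A25, a mitochondrial carrier gene that it meets tail-to-tail, at 0.11 and 0.12, was not called. AC089983.1, inside the thioredoxin reductase gene TXNRD1, rose by 0.63 ± 0.21 and 0.82 ± 0.20, and TXNRD1, at 0.10 in both authors' deposited tables, was not called. KLRK1-AS1 fell by 0.70 ± 0.22 and 0.68 ± 0.20 against the knockout in the authors' deposited tables.

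PRKG1-AS1 moved together with its coding gene. It stood at 2.51 CPM in parental cells, 2.34 in the knockout, 3.67 in FH-WT cells and 3.53 in FH-5xA cells. DKK1, which shares 212 exon bases with it, stood at 254, 282, 437 and 580 CPM. Neither was called in the knockout against parental, and both were higher in the reconstituted lines. In the authors' deposited tables PRKG1-AS1 rose over the knockout by 0.65 ± 0.16 and 0.59 ± 0.15, and DKK1 by 0.64 ± 0.11 and 1.04 ± 0.11. The derived difference of FH-5xA from FH-WT was -0.06 ± 0.15 for PRKG1-AS1, which was not called, and 0.41 ± 0.11 for DKK1 (adjusted p 0.017).

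Besides PRKG1-AS1 with DKK1, the pair called in the authors' deposited table for FH-WT against knockout was RAP2C-AS1 at -0.86 ± 0.26 with MBNL3, a splicing regulator gene, at -0.37 ± 0.10. In FH-5xA against knockout the other pairs were SCAT8 with EYS, GAS6-AS1 with GAS6, and FOXP4-AS1 with FOXP4, all higher. FOXP4-AS1 rose by 0.82 ± 0.24 and FOXP4 by 0.69 ± 0.20 in the authors' deposited table, although they had moved in opposite directions in the knockout. No pair was called in opposite directions in either comparison, where both genes were called in only 2 and 4 of 345 pairs. Among the 1430 pairs of coding genes, 14 were called in the same direction and 4 in opposite directions in FH-WT against knockout. In FH-5xA against knockout these counts were 15 and 2. Scarce transcripts, at 0.92 to 1.04 CPM in the knockout, were among the largest rises in FH-5xA: MMP25-AS1 at 0.99 ± 0.29, MHENCR at 0.98 ± 0.21 and TMEM51-AS1 at 0.93 ± 0.22 in the authors' deposited table. BCAN-AS2, at 2.55 CPM in the knockout and 5.04 in FH-5xA, rose by 0.98 ± 0.27.

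A few transcripts moved one way in the knockout and the other way in the reconstituted lines, in comparisons that share the knockout libraries. TMEM147-AS1 stood at 26.0 CPM in parental cells, 19.2 in the knockout, 23.9 in FH-WT cells and 24.3 in FH-5xA cells. DHRS4-AS1 stood at 19.4, 14.5, 18.8 and 18.4 CPM in the same order. Both transcripts were lower in the knockout and higher in both reconstituted lines than in the knockout, in the authors' deposited tables. TMEM147-AS1 fell by 0.44 ± 0.09 and then rose by 0.32 ± 0.09 and 0.34 ± 0.09, and TMEM147, at -0.18, 0.00 and 0.14 in the authors' deposited tables, was called in none of these comparisons. PAN3-AS1 went the other way: it rose by 0.52 ± 0.16 in the knockout and fell by 0.55 ± 0.17 and 0.51 ± 0.16 in the reconstituted lines, back to 2.79 and 2.88 CPM from 4.09, with 2.85 in parental cells.

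Set against parental cells, both reconstituted lines had more higher than lower calls. The authors' deposited table for FH-WT against parental held 66 antisense transcripts that were higher and 42 lower, where 34.4% of all genes were called, 18.3% higher and 16.1% lower. For FH-5xA against parental it held 96 higher and 62 lower, where 43.8% of all genes were called, 22.9% higher and 20.9% lower. The antisense transcripts were called in 22.7% and 33.3%, below the share of all genes in both. Under 2 log2 CPM, 46 of 351 were higher and 21 lower in FH-WT, and 71 higher and 32 lower in FH-5xA. Other scarce genes also had more higher than lower calls. Noncoding genes and pseudogenes of that expression had 162 and 134 in FH-WT and 253 and 161 in FH-5xA among 1351. Coding genes of that expression had 247 and 159, and 415 and 147, among 1353. The 3 comparisons with parental cells share the parental libraries. Transcripts that were higher in all 3 deposited tables included SCAT8, MVP-DT, LUCAT1, MRPS30-DT, KCNQ1OT1 and NR2F2-AS1, and those lower in all 3 included AP002478.1, PINK1-AS, SBF2-AS1, TMPO-AS1 and ZFAS1.

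The series' design text sets FH-5xA against FH-WT, for which no deposited table was used here. That difference was derived from the 2 tables against the knockout, with a chi-square test adjusted over all genes by the Benjamini-Hochberg method. It called 9 antisense transcripts, 6 higher and 3 lower in FH-5xA, where 4.11% of all genes were called, 1.98% higher and 2.13% lower. GAS6-AS1 had the smallest adjusted p: it was higher in FH-5xA by 0.64 ± 0.13 (adjusted p 0.00056), while GAS6 differed by 0.18 ± 0.15 and was not called. TMEM51-AS1 at 0.82 ± 0.25, MHENCR at 0.79 ± 0.23, SPINT1-AS1 at 0.74 ± 0.23, MAP4K3-DT at 0.59 ± 0.16 and C1RL-AS1 at 0.36 ± 0.12 were also higher. FBXO38-DT was lower by 1.36 ± 0.34, at 0.45 CPM in FH-5xA and 1.15 in FH-WT. AL359921.2, inside the galectin gene LGALS8, was lower by 0.78 ± 0.19, and AC087392.1, inside NXN, by 0.66 ± 0.19. In none of the 7 pairs among these was the coding gene called. None of the 9 remained called when the squared errors of the 2 tables were summed instead. That sum counts the shared knockout libraries in both tables and so overstates the error. Its median SE over the antisense transcripts was 0.30, against 0.22, and it called 13 of all genes. It therefore cannot decide whether the 9 calls hold.

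**Figure D5:**
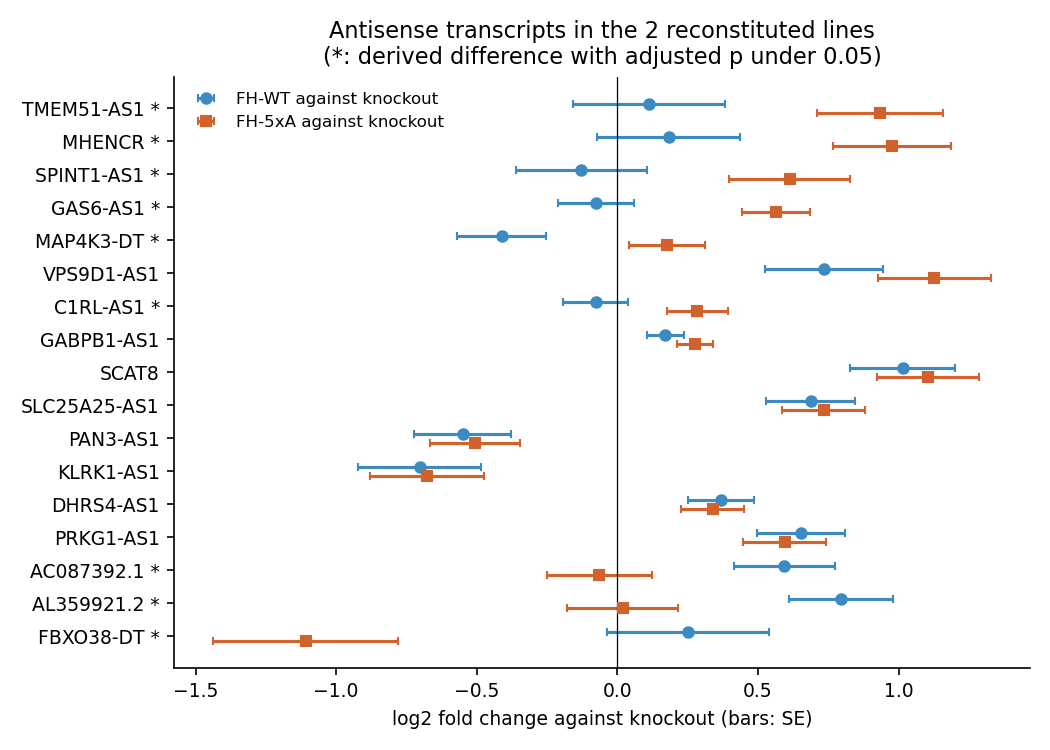
Deposited log2 fold changes against the knockout, with SE bars, for FH-WT (circles) and FH-5xA (squares), for the 9 transcripts called in the derived difference (marked *) and 8 others named in the text. SCAT8, SLC25A25-AS1, DHRS4-AS1, PRKG1-AS1, KLRK1-AS1 and PAN3-AS1 lie on the same side in both lines, while AL359921.2 and AC087392.1 were raised in FH-WT only and TMEM51-AS1 and MHENCR in FH-5xA only by the deposited calls.

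Of 37 antisense RNAs described in the literature, 17 were measured here. In the knockout KCNQ1OT1 and KTN1-AS1 rose and SBF2-AS1, TMPO-AS1, CDKN2B-AS1 and ZFAS1 fell, in the authors' deposited table. That made 2 of 17 higher and 4 lower, where 23.2% and 21.2% of all genes were. CDKN2B-AS1 fell by 0.54 ± 0.23 (adjusted p 0.046) while CDKN2B, a CDK inhibitor gene that lies within it, rose by 0.97 ± 0.12. Centring the fold changes ended the call of CDKN2B-AS1 (adjusted p 0.056). SPRY4-AS1 rose in FH-WT against knockout by 0.47 ± 0.15, the 1 call among the 17 there, where 10.1% of all genes were called. In FH-5xA against knockout the authors' edgeR test called 0 of 17, where 11.3% of all genes were called, with 5 at an unadjusted p under 0.05 (SPRY4-AS1 at 0.40 ± 0.15). BDNF-AS was called in no comparison, at -0.16 in the knockout, and then, relative to the knockout, at 0.14 for FH-WT cells and 0.68 for FH-5xA cells, whereas BDNF, a neurotrophin gene that it meets tail-to-tail, rose by 0.35 ± 0.07 and then fell by 0.73 ± 0.08 and 0.55 ± 0.07 in the 2 reconstituted lines in the authors' deposited tables.

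The nuclear exosome and its adaptors remove many antisense and promoter-upstream transcripts. Of 27 genes listed for that machinery, all measured, 1 was higher and 11 lower in the knockout in the authors' deposited table, with a median of -0.21. That is 44.4% called, the same share as over all genes, of which 23.2% were higher and 21.2% lower. Centring the fold changes on the median gene, added after seeing the data, gave 3 higher and 11 lower. Among them EXOSC8 fell by 0.60 ± 0.09, EXOSC3 by 0.47 ± 0.10 and EXOSC9 by 0.36 ± 0.08, which are exosome subunits, and the termination factor PCF11 fell by 0.40 ± 0.07. ZFC3H1, of the exosome targeting connection, rose by 0.26 ± 0.08. In FH-WT against knockout 3 were higher and 0 lower in the authors' deposited table, among them EXOSC8 at 0.43 ± 0.09. That is 11.1% of the 27 called, near the 10.1% over all genes. In FH-5xA against knockout 0 were called by the authors' edgeR test, with 3 at an unadjusted p under 0.05, where 11.3% of all genes were called. The part of these genes in the changes of the antisense transcripts was not tested.

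What the antisense transcripts share in sequence was described from RefSeq promoters, 250 bases before to 50 after the start, which were found for 254 of 475 transcripts. The GC box (GGGCGG on either strand) was in 66.5% of these windows, against 71.8% of the windows of measured coding genes and 44.6% of all 27305. TATAAA on either strand was in 7.09%, against 5.38% and 11.95%, and the E-box CACGTG in 9.06%, against 10.2% and 7.43%. Median GC was 65.8%, against 65.7% and 58.3%. In knockout against parental it was 63.8% in the 34 windows of higher transcripts and 65.3% in the 55 of lower ones. In FH-5xA against knockout it was 61.0% in the 21 windows of higher transcripts and 63.3% in the 4 of lower ones. The window of SCAT8, printed above, had 37.3% GC and held none of the 3 motifs, and that of VPS9D1-AS1 had 77.9% GC.

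MicroRNAs guide AGO2 through their seed, bases 2 to 8, given in capitals for 4 abundant families of epithelial cells (RefSeq, 5′ to 3′):
hsa-let-7a-5p: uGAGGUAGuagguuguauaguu
hsa-miR-17-5p: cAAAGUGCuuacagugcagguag
hsa-miR-19b-3p: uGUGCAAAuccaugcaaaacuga
hsa-miR-21-5p: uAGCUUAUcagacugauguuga
A match to the seed was searched in the longest GENCODE 29 isoform of each transcript, on its own strand. CTACCTC, the match to let-7a, was found in 53 transcripts. GCACTTT, the match to miR-17, was found in 114, TTTGCAC, for miR-19b, in 48, and ATAAGCT, for miR-21, in 41. In knockout against parental the median log2 fold change of transcripts with and without a match was -0.06 and -0.06 for let-7a, -0.07 and -0.06 for miR-17, -0.02 and -0.06 for miR-19b, and 0.01 and -0.07 for miR-21. The widest gaps were those of miR-21 against the knockout, at -0.02 and 0.10 in FH-WT cells and -0.04 and 0.13 in FH-5xA cells, given as a description with no test. Transcripts with a match were longer, with median lengths of 2614 to 2883 bases against 1541 to 1753. SCAT8, in 1454 bases, held none of the 4.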

How the data were processed

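Total RNA of 12 libraries was sequenced after ribosomal RNA removal with a stranded kit, per the labels' protocols. TopHat2 2.0.12, Cufflinks 2.2.1, featureCounts 1.4.6, edgeR 3.8.6 and GRCh38 (hg38) are named in the submitters' processing notes, without their roles. The authors deposited 5 tables of 15074 genes, each with a log2 fold change, a mean expression in log2 CPM, a likelihood ratio (a score) and a p-value with its false discovery rate, per the file headers. Counts per library were not analysed here, so no library size is known, and the deposited edgeR tests were used in place of a new count test.

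SEs are the absolute log2 fold change over the root of the likelihood ratio. FH-5xA minus FH-WT is the difference of the 2 fold changes against the knockout. Its variance came from group variances solved from the 5 squared SEs, with a chi-square test on 1 degree of freedom and Benjamini-Hochberg adjustment over 15072 genes. Scripts (Python 3.11.15, numpy 2.4.6, pandas 2.3.3, scipy 1.17.1, matplotlib 3.10.9) were tested on simulated data. Fitted levels, in CPM, average over the 4 groups to the deposited mean.

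Types and positions are from GENCODE 29, in which 15029 genes were found. The coding gene of a transcript is the measured opposite-strand one with the longest shared span. Promoters and microRNAs are from RefSeq (GRCh38.p14). Named transcripts are SCAT8, the 8 largest rises and falls of each deposited comparison among those called at 0 log2 CPM or more, those called in the derived difference, a list of literature antisense RNAs, the 5 of highest expression and the 5 pairs furthest apart. Others were named after their values were seen. The members and all lists were chosen with earlier results of these data known. Alternatives were a false discovery rate of 0.01, centring on the median gene, summed errors, and pairs by shared exon bases.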

Additional observations from a re-analysis of the deposited data

Results flagged for a closer look

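Between the 2 reconstituted lines, 9 antisense transcripts differed in their change against the knockout, by the chi-square test of the difference adjusted over all genes. Each stands here because the test of the difference itself passed. FBXO38-DT was lower in FH-5xA by a log2 difference of -1.36 ± 0.34 (SE, adjusted p 0.0080), at no more than 1.15 CPM in any group. AL359921.2 differed by -0.78 ± 0.19 (adjusted p 0.0061) and AC087392.1 by -0.66 ± 0.19 (adjusted p 0.020). Higher in FH-5xA were GAS6-AS1 by 0.64 ± 0.13 (adjusted p 0.00056) and MAP4K3-DT by 0.59 ± 0.16 (adjusted p 0.014). TMEM51-AS1 differed by 0.82 ± 0.25 (adjusted p 0.030), MHENCR by 0.79 ± 0.23 (adjusted p 0.023) and SPINT1-AS1 by 0.74 ± 0.23 (adjusted p 0.038). The smallest of the 9 was C1RL-AS1 at 0.36 ± 0.12 (adjusted p 0.044). How many libraries of each line show these directions cannot be read from the deposited tables.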

How the results depend on the processing

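Values per library were not analysed here, so leaving out a replicate was not run. No paired analysis was possible because the tables hold group comparisons only and carry no replicate numbers. At a false discovery rate of 0.01, the antisense transcripts called were 6 in FH-WT against knockout (6 higher, 0 lower), 17 in FH-5xA against knockout (16 higher, 1 lower), 68 in FH-WT against parental (45 higher, 23 lower) and 3 in FH-5xA against FH-WT (1 higher, 2 lower, where 6 were higher and 3 lower at 0.05). With the squared errors of the 2 tables summed, FH-5xA against FH-WT called 0 by the chi-square test, against the knockout or against parental cells alike, with 17 at an unadjusted p under 0.05 each time and smallest adjusted p-values of 0.183 and 0.353. Such a sum counts the shared group in both tables and overstates the error. Over all genes it called 13 and 17, where the main setting called 620. Pairs called in the same direction at 0.01 were 16 in knockout against parental (15 opposite), 1 for FH-WT against knockout and 8 for FH-WT against parental (4 opposite). Among pairs sharing exon bases they were 1 (FH-WT) and 2 (FH-5xA) against the knockout. Among pairs sharing none they were 6 in knockout against parental (5 opposite), 1 in FH-WT against knockout (0 opposite) and 2 in FH-5xA against knockout (0 opposite). Against parental cells such pairs gave 6 in FH-WT (3 opposite) and 5 in FH-5xA (6 opposite). These subsets hold fewer pairs. Centring on the median gene off chromosome 7 gave 323 values with the same direction and call and 2 that lost the call: SPINT1-AS1 in FH-5xA against parental (-0.47, adjusted p 0.052) and CDKN2B-AS1 in the knockout (-0.51, adjusted p 0.056). No call of a named transcript changed sign. The median difference between a transcript and its coding gene did so in pairs sharing no exon base, from -0.09 to 0.021 in knockout against parental and from -0.025 to 0.015 in FH-5xA against parental, each by less than the SD over pairs (0.759 and 0.742). Leaving out SCAT8 and centring the RNA decay genes were chosen after seeing the data. Neither moved a total of calls by over 1.5 times, but centring took the decay genes called in the knockout from 12 (1 higher, 11 lower) to 14 (3 higher, 11 lower). The cause of these shifts was not tested. What depth limits cannot be read from these tables. The median SE over the antisense transcripts was 0.21 in the knockout, against 0.12 over all genes.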
